A study of Mus musculus with 5 samples.

Results

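RNA levels of 9 genes through which cells receive and relay interferon signals were examined in EpH4 cells with and without a guide RNA against Mef2d. The genes were named by their place in the pathway, with earlier results of these data known, so the list is no independent sample of genes. They are the type I interferon receptor chains Ifnar1 and Ifnar2, the type II receptor chains Ifngr1 and Ifngr2, the signal transducer Stat2, and the interferon regulatory factors Irf1, Irf3, Irf7 and Irf9. All 9 were among the 12934 genes listed in the counts and among the 12483 genes tested. EpH4 is an immortalized mouse mammary epithelial cell line. All 5 libraries came from EpH4 cells infected with a Cas9 lentivirus and selected with blasticidin, then infected with a guide RNA virus and selected with puromycin. The 3 sgControl libraries, labelled sgCon, carried a control guide, and the 2 sgMef2d libraries carried a guide against Mef2d, which encodes a MADS box transcription factor. The study used 2 different Mef2d guides, and the labels do not say which library carried which. The labels name no interferon treatment, and they do not say whether libraries of a group came from separate cultures or separately selected cells, so p-values measure the spread between these libraries, which may be technical.

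Interferons are secreted proteins known for antiviral defence, and most cells, epithelial cells included, carry receptors for them. Type I interferons bind IFNAR1 and IFNAR2, whose associated kinases TYK2 and JAK1 phosphorylate STAT proteins, STAT2 among them. STAT2 and IRF9 are subunits of the complex ISGF3, which binds the interferon-stimulated response element (ISRE) of target genes. Interferon gamma binds IFNGR1 and IFNGR2, and JAK1 and JAK2 then activate STAT dimers that bind the gamma-activated site (GAS) of genes such as Irf1. IRF3 and IRF7 are activated by sensors of foreign nucleic acids and turn on the interferon genes themselves. Irf7, Irf9 and Stat2 are in turn known targets of interferon signalling.

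The libraries held between 13601145 and 20498563 counts, and 3 counts, taken as the floor of detection, corresponded to 0.146 to 0.221 CPM, the count relative to the TMM-scaled total of its library (TMM is a scaling against differences in RNA composition). The targeted gene was read first. Mef2d (ENSMUSG00000001419.17, chr3:88142372-88172086, GRCm38) gave 64.2, 76.9 and 71.4 CPM in the sgControl libraries and 64.2 and 65.8 CPM in the sgMef2d libraries. The groups overlapped, and the log2 fold change of sgMef2d over sgControl was -0.12 (standard error (SE) 0.080, 95% interval -0.30 to 0.05, adjusted p = 0.40 by edgeR's quasi-likelihood test). Without sgControl replicate 1 it was -0.19 with an adjusted p of 0.00550 in edgeR, within a range of 0.00550 to 0.770 over the alternatives. RNA counts of the targeted gene do not measure its protein. The study checked the loss of the protein in its knockout EpH4 cells by immunoblot, a measure not analysed here. Of 12 epithelial marker genes, 11 were listed, with summed levels of 4361 to 4536 CPM in sgControl and 4158 to 4322 CPM in sgMef2d. Of the 11, Krt18 passed lower (log2 fold change -0.26, adjusted p = 0.0207 in edgeR) and Cldn4 higher (0.26, adjusted p = 0.0407). Of 16 immune markers, 5 were listed, at 40.4 to 46.7 CPM in sgControl and 34.5 to 36.2 CPM in sgMef2d, most of it Cd14, and the leukocyte marker Ptprc was not among the listed genes. Cd14 itself passed lower (log2 fold change -0.35, adjusted p = 0.0472 in edgeR). These 3 marker genes, named after their calls were seen, each lost the call when sgControl replicate 2 or either sgMef2d library was left out, with adjusted p over all alternatives between 2.67e-08 and 0.283 for Krt18, 2.95e-09 and 0.335 for Cldn4, and 0.00434 and 0.372 for Cd14. Cldn4 also missed the threshold with the replicate block and without sgControl replicate 3, and Cd14 under upper quartile scaling, DESeq2 and limma-voom. None of 6 endothelial markers was listed. Of 10 fibroblast markers, 7 were listed, and their sum was lower in sgMef2d (1093 to 1126 CPM) than in sgControl (1417 to 1551 CPM). The list did not move one way: 2 of its genes passed lower, Postn (log2 fold change -0.69, adjusted p = 3.01e-05 in edgeR) and Col1a2 (-0.54, adjusted p = 2.32e-04), which made up most of the sum. Another 2, named after their values were seen, passed higher at low levels, Col3a1 (1.45, adjusted p = 0.00142 in edgeR) and Dcn (1.23, adjusted p = 0.0203). The call of Dcn was lost without sgControl replicate 2 or either sgMef2d library, and its adjusted p in edgeR and the other tools ranged from 3.97e-05 to 0.182 over the alternatives. The part of these shifts in the results was not tested.

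The sequences just upstream of 3 members are shown because these genes represent the members with and without a recognizable interferon element near their start. Irf7 had the largest fold change of the members, Stat2 was the only member with an ISRE match, and Irf1 is a well-known target of the GAS pathway. Matches are in capitals, and each stretch reads 5′ to 3′ on the gene's strand from RefSeq promoter windows on GRCm38.p6, with bases inside annotated exons left out. Irf7 lies at chr7:141266482-141266674 on the minus strand, Stat2 at chr10:128270248-128270497 on the plus strand and Irf1 at chr11:53769764-53770013 on the plus strand.
Irf7: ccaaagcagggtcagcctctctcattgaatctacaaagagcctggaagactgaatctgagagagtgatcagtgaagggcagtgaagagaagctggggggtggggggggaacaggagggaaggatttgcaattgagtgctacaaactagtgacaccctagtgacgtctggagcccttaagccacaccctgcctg
Stat2: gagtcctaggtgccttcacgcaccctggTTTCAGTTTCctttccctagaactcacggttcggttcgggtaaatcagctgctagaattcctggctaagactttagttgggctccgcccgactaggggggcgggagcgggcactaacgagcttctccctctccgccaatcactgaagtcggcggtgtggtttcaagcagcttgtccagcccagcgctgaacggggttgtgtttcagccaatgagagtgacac
Irf1: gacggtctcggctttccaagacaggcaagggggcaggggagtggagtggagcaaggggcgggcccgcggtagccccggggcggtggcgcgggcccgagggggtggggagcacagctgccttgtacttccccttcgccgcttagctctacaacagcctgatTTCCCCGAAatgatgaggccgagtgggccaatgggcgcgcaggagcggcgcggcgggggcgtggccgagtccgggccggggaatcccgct

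The windows covered 250 bases before to 50 bases after each start, and all 9 members matched a total of 11 windows. The ISRE was searched as GAAANNGAAA on both strands and occurred in 3.44% of 32851 windows. The GAS was searched as TTCNNNGAA, which is its own reverse complement, and occurred in 8.30% of windows. Among the members, 1 held an ISRE match, namely Stat2, at position -222 on the reverse strand. A GAS match was found in 3 members, Irf1 at -90, Ifnar1 at -5 and Ifnar2 at -214. The windows of Irf3, Irf7, Irf9, Ifngr1 and Ifngr2 held neither set of letters. A match here is a description of the letters in this window only.

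Of the 9 members, 3 passed the threshold of an adjusted p below 0.05 in sgMef2d against sgControl. Irf7 and Irf9 were higher, and Ifngr2 was lower. Over all genes tested, 7.95% passed, 3.67% higher and 4.28% lower. The 9 members were named with earlier results of these data known, so their share cannot be read as an enrichment. At an unadjusted p below 0.05, 4 members passed, against 23.2% of all genes tested. The groups did not overlap for 5 of the 9, 2 above and 3 below, against 41.1% of all genes tested, 20.6% above and 20.5% below. The median log2 fold change of the members was 0.04 and that of all genes tested 0.00, with 5th and 95th percentiles of -0.49 and 0.46. In these bulk samples, fewer cells expressing a gene and less RNA per cell cannot be told apart.

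The member calls depended on the libraries used. Without sgControl replicate 1, 5 members passed in edgeR, among 29.4% of all genes. Without sgControl replicate 2, the same 3 passed, among 4.84% of all genes, and without sgControl replicate 3 only Irf7 and Irf9 passed, among 6.51%. Without sgMef2d replicate 1 none of the 9 passed in edgeR, against 1.88% of all genes. In that fit 4 members and 14.1% of all genes had an unadjusted p below 0.05. Without sgMef2d replicate 2 none passed in edgeR, against 1.83% of all genes, and 3 members and 12.4% of all genes had an unadjusted p below 0.05. In these last fits, the lone sgMef2d library was assumed to vary like the sgControl libraries, and no other tool was run. DESeq2 and limma-voom on all 5 libraries called the same 3 members.

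**Figure D1:**
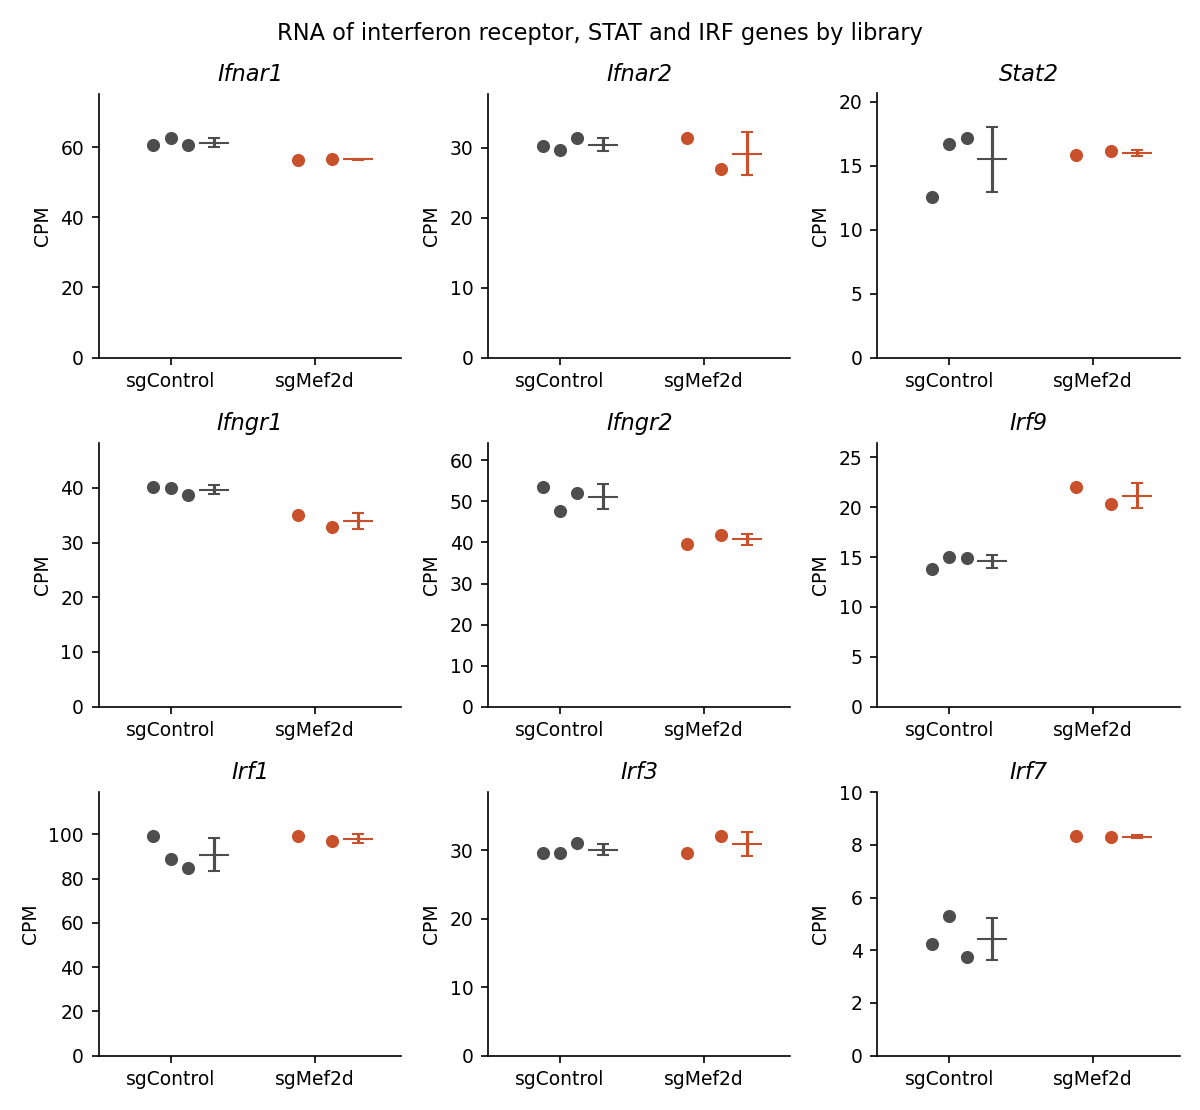
Levels of the 9 members in CPM, one panel a gene with the axis from 0, for the 3 sgControl and 2 sgMef2d libraries. Points are libraries, and the line with whiskers beside them is the group mean ± SD. The sgMef2d points lie above all sgControl points for Irf7 and Irf9 and below them for Ifnar1, Ifngr1 and Ifngr2.

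Irf7, which encodes the main amplifying factor of type I interferon production, was the member with the largest fold change. Irf7 (ENSMUSG00000025498.15, chr7:141262706-141266481) gave 4.24, 5.32 and 3.74 CPM in the sgControl libraries and 8.35 and 8.28 CPM in the sgMef2d libraries, from 87, 75 and 51 counts against 142 and 123. Both sgMef2d libraries lay above every sgControl library, and the gene was low throughout. Irf7 averaged 4.43 ± 0.807 CPM in sgControl (SD, n = 3) and 8.32 ± 0.0522 CPM in sgMef2d (SD, n = 2), a 1.88-fold difference. The log2 fold change was 0.91 (SE 0.164, 95% interval 0.55 to 1.27, adjusted p = 0.00616 by edgeR's quasi-likelihood test). The call was lost without sgMef2d replicate 1 (adjusted p = 0.0825 in edgeR) or replicate 2 (adjusted p = 0.0743), and the adjusted p ranged from 9.57e-05 to 0.0825 over the alternatives. The upstream stretch of Irf7 printed above held no match to the ISRE or GAS.

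Irf9, the DNA-binding subunit of ISGF3, also rose. Irf9 (ENSMUSG00000002325.15, chr14:55603571-55610030) gave 13.8, 15.0 and 14.9 CPM in sgControl and 22.1 and 20.3 CPM in sgMef2d, with no overlap. Irf9 averaged 14.6 ± 0.673 CPM in sgControl (SD, n = 3) and 21.2 ± 1.27 CPM in sgMef2d (SD, n = 2), 1.46-fold more. The log2 fold change was 0.55 (SE 0.098, 95% interval 0.33 to 0.76, adjusted p = 0.00588 by edgeR's quasi-likelihood test). The call was lost without sgMef2d replicate 1 (adjusted p = 0.122 in edgeR) or replicate 2 (adjusted p = 0.0506), within a range of 8.87e-05 to 0.122. Stat2, whose protein is the partner of IRF9 in ISGF3, did not pass the test. Stat2 (ENSMUSG00000040033.16, chr10:128270559-128292849) gave 12.6, 16.7 and 17.2 CPM in sgControl and 15.8 and 16.2 CPM in sgMef2d. Both sgMef2d values lay inside the sgControl range, which was widened by sgControl replicate 1. Its log2 fold change was 0.06 (SE 0.136, 95% interval -0.24 to 0.36, adjusted p = 0.830 by edgeR's quasi-likelihood test), so an increase as large as that of Irf9 lay outside its interval. Stat2 was the member whose upstream stretch held the ISRE letters.

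Ifngr2, the chain of the interferon gamma receptor that brings JAK2 to the complex, fell by 20.4% in sgMef2d. Ifngr2 (ENSMUSG00000022965.8, chr16:91547072-91565623) gave 53.6, 47.7 and 52.0 CPM in sgControl and 39.7 and 41.7 CPM in sgMef2d. Both sgMef2d libraries lay below every sgControl library. The averages were 51.1 ± 3.05 CPM in sgControl (SD, n = 3) and 40.7 ± 1.43 CPM in sgMef2d (SD, n = 2), and the log2 fold change was -0.33 (SE 0.076, 95% interval -0.50 to -0.16, adjusted p = 0.0231 by edgeR's quasi-likelihood test). The call was lost without sgControl replicate 3 (adjusted p = 0.0505 in edgeR), sgMef2d replicate 1 (adjusted p = 0.257) or replicate 2 (adjusted p = 0.160), within a range of 3.52e-04 to 0.257. Ifngr1, the ligand-binding chain of the same receptor, did not pass the threshold. Ifngr1 (ENSMUSG00000020009.13, chr10:19591949-19610229) gave 40.3, 40.0 and 38.8 CPM in sgControl and 35.1 and 32.9 CPM in sgMef2d, again with no overlap. Its log2 fold change was -0.22 (SE 0.074, 95% interval -0.39 to -0.06), with an unadjusted p of 0.0117 and an adjusted p of 0.0957 by edgeR's quasi-likelihood test. Without sgControl replicate 1, Ifngr1 passed (adjusted p = 0.0234 in edgeR, within a range of 0.0234 to 0.551), in a fit in which 29.4% of all genes passed.

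The chains of the type I receptor did not pass. Ifnar1 (ENSMUSG00000022967.13, chr16:91485238-91507441), the signalling chain that binds TYK2, gave 60.5, 62.7 and 60.7 CPM in sgControl and 56.4 and 56.6 CPM in sgMef2d. The groups did not overlap, and the log2 fold change was -0.12 (SE 0.064, 95% interval -0.26 to 0.02, adjusted p = 0.303 by edgeR's quasi-likelihood test). Ifnar2 (ENSMUSG00000022971.18, chr16:91372783-91405589), the chain with the higher affinity for the ligand, gave 30.2, 29.6 and 31.4 CPM in sgControl and 31.3 and 26.9 CPM in sgMef2d. The groups overlapped, sgMef2d replicate 2 was the lowest library, and the log2 fold change was -0.06 (SE 0.088, 95% interval -0.25 to 0.13, adjusted p = 0.736 by edgeR's quasi-likelihood test). Ifnar2, Il10rb, Ifnar1 and Ifngr2 lie together on chromosome 16. Il10rb encodes the shared chain of the interferon lambda and interleukin 10 family receptors, and Ifnlr1 encodes the chain specific to interferon lambda. All 6 chains of the interferon receptors, these 2 included, had negative log2 fold changes, with a median of -0.19 on all 5 libraries. Without sgMef2d replicate 2, Ifnar2 turned to 0.04, so that 5 of the 6 were negative. Of the 6, Ifngr2 passed lower, against 4.28% of all genes tested. For 5 the sgMef2d libraries lay below all sgControl libraries, which over all genes tested held for 20.5%. Ifnlr1 gave 8.63, 8.44 and 9.45 CPM in sgControl and 6.65 and 6.60 CPM in sgMef2d (log2 fold change -0.41, SE 0.134, adjusted p = 0.0887 in edgeR), and it passed without sgControl replicate 1 (adjusted p = 0.0364, within a range of 0.0364 to 0.397). Il10rb gave a log2 fold change of -0.16 (SE 0.105, adjusted p = 0.388 in edgeR).

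Irf1 and Irf3 did not pass. Irf1, an early target of interferon gamma was the member with the highest level. Irf1 (ENSMUSG00000018899.16, chr11:53770014-53778374) gave 99.2, 88.6 and 84.6 CPM in sgControl and 99.4 and 96.7 CPM in sgMef2d. The groups overlapped through sgControl replicate 1, and the log2 fold change was 0.11 (SE 0.074, 95% interval -0.05 to 0.27, adjusted p = 0.421 by edgeR's quasi-likelihood test). Without that library it was 0.18 with an adjusted p of 0.00398 in edgeR, within a range of 0.00398 to 0.789. Irf3, the constitutive factor that acts first downstream of nucleic acid sensors, lay at chr7:44997648-45002848 (ENSMUSG00000003184.15). Its levels were 29.5, 29.6 and 31.0 CPM in sgControl and 29.6 and 32.1 CPM in sgMef2d. The groups overlapped, with a log2 fold change of 0.04 (SE 0.080, 95% interval -0.14 to 0.21, adjusted p = 0.826 by edgeR's quasi-likelihood test).

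**Figure D2:**
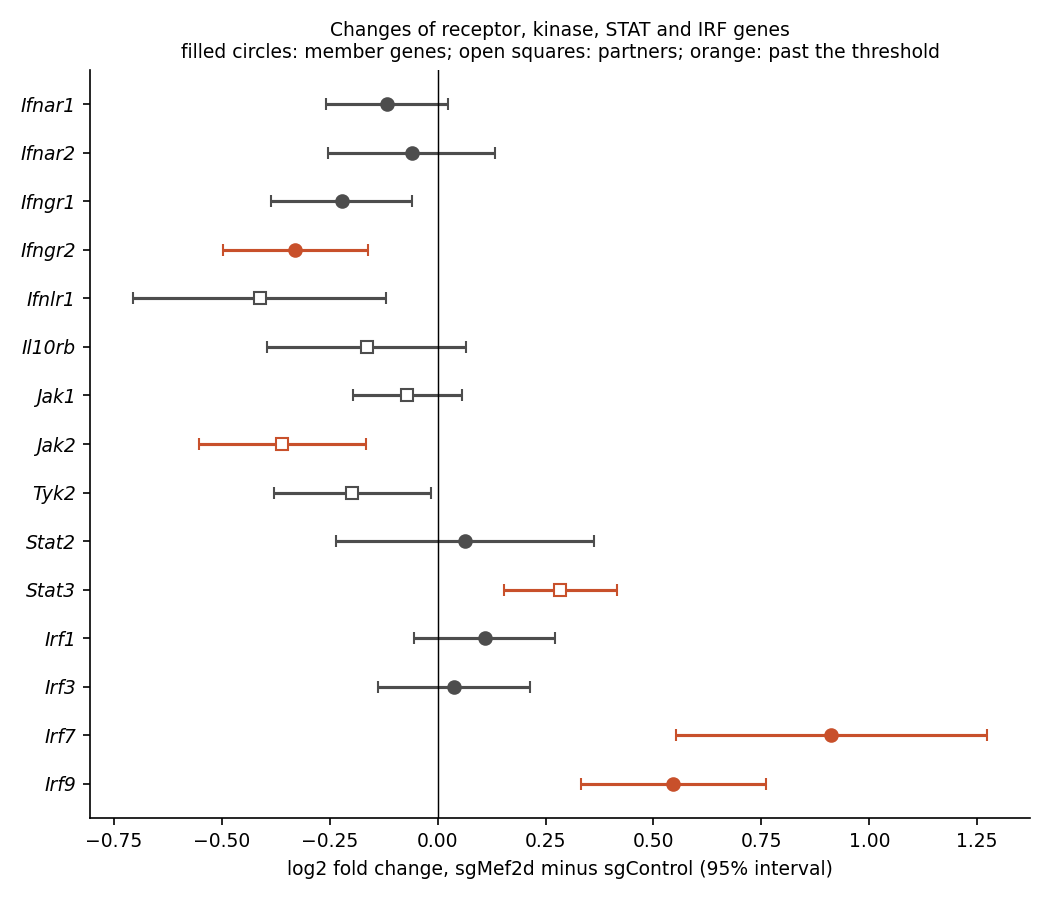
Log2 fold change of sgMef2d over sgControl for the members (filled circles) and 6 receptor, kinase and STAT partners (open squares), with 95% intervals from edgeR. Orange marks genes past the adjusted threshold, among the members Irf7 at 0.91, Irf9 at 0.55 and Ifngr2 at -0.33.

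Levels of different genes were compared per length, in CPM per kilobase of union exon length. In sgControl, Irf1 was highest at 22.8 ± 1.89 (SD, n = 3), followed by Ifngr1 at 13.9 ± 0.281 and Ifngr2 at 13.6 ± 0.808, whose ranges overlapped. Ifnar1 at 10.3 ± 0.211 came next, then Ifnar2 at 9.14 ± 0.276 and Irf3 at 8.73 ± 0.236, which overlapped. Irf9 at 2.70 ± 0.125 and Stat2 at 2.62 ± 0.431 overlapped, and Irf7 was lowest at 1.17 ± 0.214. The receptor chains among the members thus stood above the ISGF3 subunits Irf9 and Stat2 in this measure. Ifnlr1 and Il10rb were not compared per length. In sgMef2d, Irf9 stood at 3.93 ± 0.236 (SD, n = 2) and Stat2 at 2.70 ± 0.0395, and these no longer overlapped. Irf7 was still lowest at 2.20 ± 0.0138. With the length of the longest transcript in place of the union, 5 of the 9 positions in the sgControl order were kept.

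**Figure D3:**
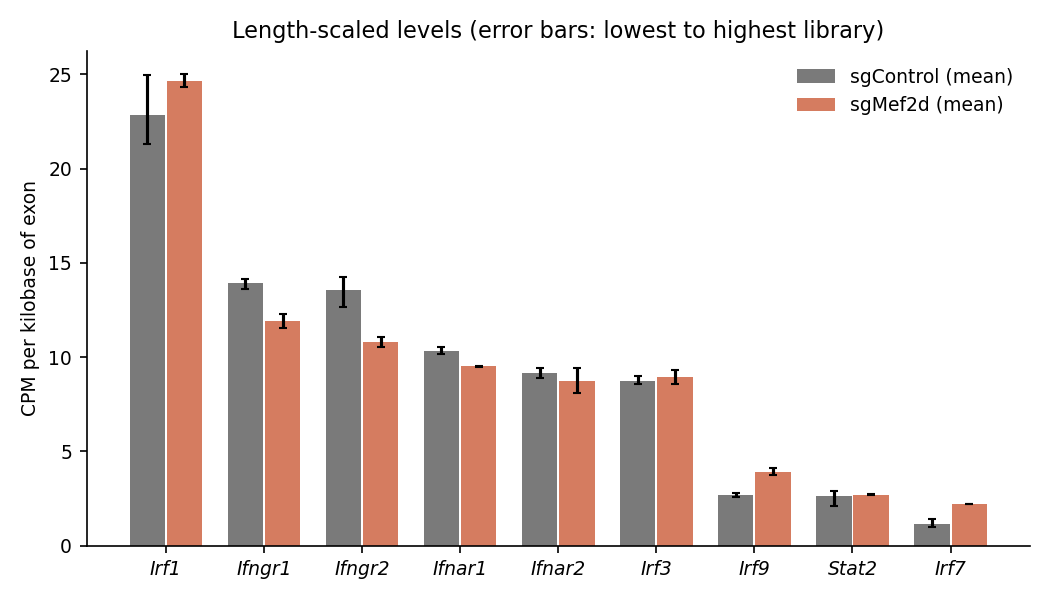
Levels of the 9 members in CPM per kilobase of union exon length with the axis from 0, ordered by the sgControl mean. Bars are group means (3 sgControl and 2 sgMef2d libraries), and whiskers run from the lowest to the highest library. Irf1 is highest and Irf7 lowest in both groups, and Irf9 moves away from Stat2 in sgMef2d.

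Ratios within a library give the balance between partners and do not depend on scaling between libraries. They are given per length as a description, without a test. The ratio of Irf9 to Stat2 was 1.21, 0.988 and 0.95 in sgControl and 1.53 and 1.38 in sgMef2d, with no overlap. The ratio of the inducible Irf7 to the constitutive Irf3 was 0.131, 0.164 and 0.110 in sgControl and 0.257 and 0.235 in sgMef2d. Here too the groups did not overlap. The ratio of Irf1 to Irf9 was 9.74, 7.99 and 7.71 in sgControl and 6.10 and 6.47 in sgMef2d, lower in both. The ratio of Ifnar1 to Ifnar2 (1.12, 1.19 and 1.08 against 1.01 and 1.18) and that of Ifngr1 to Ifngr2 (0.994, 1.11 and 0.987 against 1.17 and 1.04) overlapped between the groups.

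The other receptor and kinase genes were Ifnlr1, Il10rb and the Janus kinases. Of these 6, Jak2 passed and was lower, against 4.28% of all genes tested, and the median log2 fold change was -0.18. Jak2, the kinase bound to IFNGR2, gave 41.5, 48.7 and 46.8 CPM in sgControl and 37.1 and 33.8 CPM in sgMef2d, with no overlap (log2 fold change -0.36, SE 0.088, adjusted p = 0.0296 in edgeR). Its call was lost without sgControl replicate 2 (adjusted p = 0.111), sgControl replicate 3 (0.0620), sgMef2d replicate 1 (0.115) or sgMef2d replicate 2 (0.324), within a range of 5.48e-07 to 0.324. Log2 fold changes of the other kinases were -0.07 for Jak1, 0.02 for Jak3 and -0.20 for Tyk2, and none passed. Stat3, the main transducer of interleukin 6 family cytokines, gave 144, 151 and 154 CPM in sgControl and 176 and 187 CPM in sgMef2d (log2 fold change 0.28, SE 0.060, adjusted p = 0.0143 in edgeR). It was lost without sgControl replicate 2 (adjusted p = 0.0546 in edgeR), sgMef2d replicate 1 (0.102) or sgMef2d replicate 2 (0.281), within a range of 9.52e-07 to 0.281. Stat5a (-0.08), Stat5b (0.09) and Stat6 (0.04) did not pass.

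Among other IRF genes and genes of IRF2-binding proteins, log2 fold changes were 0.09 for Irf2, 0.13 for Irf2bp1, 0.05 for Irf2bp2 and 0.13 for Irf2bpl. None of these 4 passed on all 5 libraries, and Irf2bp1 passed without sgControl replicate 1 (adjusted p = 0.0351 in edgeR, within a range of 0.0351 to 0.948). Irf5 and Irf8, known from myeloid and lymphoid cells, stayed below 1 CPM in every library and were not tested. None of 21 interferon ligand genes was among the listed genes.

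Genes known to be induced by type I interferon lay mostly above zero. Of 44 such genes, 40 were tested, 18 were higher and 1 lower, 36 had a positive sign, and the median log2 fold change was 0.40 against 0.00 over all genes, of which 3.67% passed higher and 4.28% lower. The list was assembled with earlier results of these data known. Isg15, a ubiquitin-like modifier, rose from 6.87 ± 0.491 CPM in sgControl (SD, n = 3) to 20.2 ± 3.30 CPM in sgMef2d (SD, n = 2), or by 1.54 on the log2 scale (SE 0.133, adjusted p = 4.97e-05 in edgeR). Ifit1, which binds foreign RNA, rose from 6.72 ± 0.474 to 15.1 ± 1.89 CPM (log2 fold change 1.16, adjusted p = 3.59e-04 in edgeR). Ifitm3, a membrane protein that blocks virus entry, rose from 147 ± 6.42 to 240 ± 5.47 CPM (log2 fold change 0.71, adjusted p = 4.06e-05 in edgeR). Lgals3bp gave a log2 fold change of 0.64 (adjusted p = 7.97e-04 in edgeR). These 4 were among 8 of the 18 that kept their calls under every alternative run, and the other 10 lost theirs under at least 1. Of the 18, 10 passed without sgMef2d replicate 1 and 8 without replicate 2, 14 passed without sgControl replicate 2, and 17 without sgControl replicate 3. The gene that was lower was Ifit2, named after its value was seen, at 29.0 ± 1.16 CPM in sgControl and 22.6 ± 0.206 CPM in sgMef2d (log2 fold change -0.36, adjusted p = 0.0241 in edgeR). Its call was lost under DESeq2 (adjusted p = 0.0525) and in edgeR when any library but sgControl replicate 1 was left out (0.0578 to 0.227), within a range of 1.92e-04 to 0.227. Of 32 genes linked to interferon gamma, 23 were tested, 3 were higher and none lower, and the median was 0.06. The 3 were the guanylate-binding and immunity-related GTPase genes Igtp (log2 fold change 0.77, adjusted p = 0.00447 in edgeR), Irgm2 (0.80, adjusted p = 0.0116) and Gbp3 (0.53, adjusted p = 0.0390). The annotated spans of Igtp and Irgm2 overlap on the same strand, and shared exon bases were examined for the members only. None of the 3 passed when either sgMef2d library was left out. Gbp3 also missed the threshold without sgControl replicate 2 (adjusted p = 0.121 in edgeR) or replicate 3 (0.0800) and under DESeq2 (0.0735), and their adjusted p ranged from 7.20e-07 to 0.386.

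Of 14 negative regulators of the pathway, 2 were higher and none lower, with a median log2 fold change of -0.06. Socs3, an inhibitor of cytokine receptors and Janus kinases, rose from 29.0 ± 3.81 CPM in sgControl (SD, n = 3) to 48.0 ± 2.0 CPM in sgMef2d (SD, n = 2), or by 0.72 on the log2 scale (adjusted p = 0.00126 in edgeR), and kept its call under every alternative run. Usp18, which removes ISG15 from proteins and blocks IFNAR2, rose from 4.74 ± 1.07 to 8.39 ± 0.623 CPM (log2 fold change 0.80, adjusted p = 0.0207 in edgeR). It was lost without sgMef2d replicate 1 (adjusted p = 0.215 in edgeR) or replicate 2 (0.113), within a range of 1.85e-05 to 0.215. Of 24 sensors and adaptors, 21 were tested, 5 were higher and 2 lower, with a median of 0.02. Higher were Ifi204 (log2 fold change 0.36, adjusted p = 0.00815 in edgeR), Zbp1 (0.70, adjusted p = 0.0177) and Ddx58 (0.31, adjusted p = 0.0177), which sense DNA or RNA. Dhx58 (0.77, adjusted p = 0.0283 in edgeR) and Trim25 (0.31, adjusted p = 0.0267), both named after their values were seen, were higher too. Lower were the surface sensors Tlr2 (-0.55, adjusted p = 0.00554 in edgeR) and Tlr4 (-0.39, adjusted p = 0.0208), the latter named after its value was seen. None of these 7 passed when either sgMef2d library was left out, Zbp1, Trim25 and Dhx58 also missed without sgControl replicate 2, and Dhx58 missed without sgControl replicate 3 and under DESeq2. Over the alternatives the adjusted p of the 7 ranged from 6.06e-10 to 0.301. Across all the lists of other pathway genes, 31 of 114 tested were higher and 4 lower, against 3.67% and 4.28% of all genes, and the median was 0.12. Without sgMef2d replicate 1 or replicate 2, 12 passed in each case, all higher, against 1.88% and 1.83% of all genes. Without sgControl replicate 2, 23 passed, against 4.84% of all genes, and without sgControl replicate 1, 55 passed, against 29.4%.

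**Figure D4:**
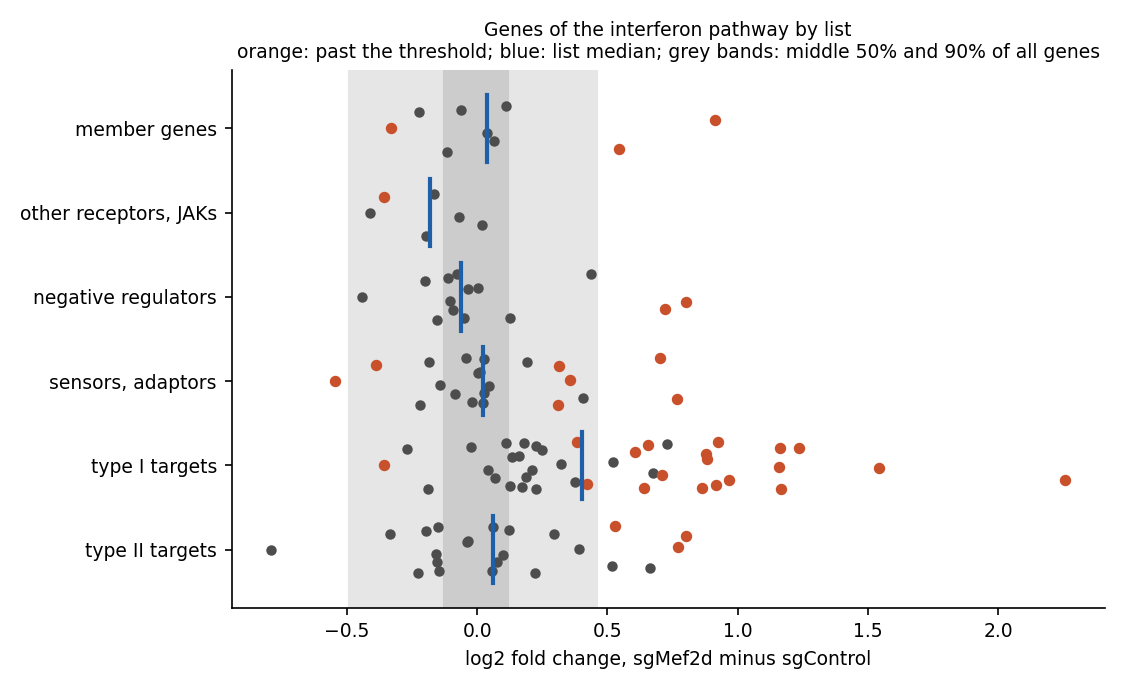
Log2 fold changes of sgMef2d over sgControl for the members and 5 lists of pathway genes, one point a gene, orange past the threshold, with the list median as a blue line. Grey bands hold the middle 50% and 90% of all genes tested. Type I targets have a median of 0.40 and the members one of 0.04.

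The genes most like each called member were found by the root mean square difference of centred log2 CPM over the 5 libraries. For Irf9 these were Slfn8 (0.0121), Nr2f2 (0.0380) and E2f2 (0.0389). Slfn8 had a log2 fold change of 0.55, like Irf9, and such a likeness follows from the way these genes were picked. For Irf7 they were P2ry10b (0.0315), Slc25a48 (0.0489) and Sema4a (0.0884). P2ry10b was low, with means of 0.706 CPM in sgControl and 1.38 CPM in sgMef2d. Its log2 fold change was 0.96, and it did not pass (adjusted p = 0.117 in edgeR). For Ifngr2 they were Atxn1 (0.0193), Tbc1d32 (0.0231) and Intu (0.0234), of which Atxn1 passed (log2 fold change -0.36, adjusted p = 0.0375 in edgeR).

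Some members share exon bases with a neighbour, and the strand setting of the counting was not stated. Irf9 shares 123 bases with Rnf31 on the same strand, and Rnf31 gave a log2 fold change of -0.04 (adjusted p = 0.843 in edgeR). Irf7 shares 45 bases with Phrf1 on the opposite strand, and Phrf1 gave 0.10 (adjusted p = 0.474 in edgeR). Ifnar2 shares 315 bases with Gm21970, which was not among the listed genes, and 7.89% of its 50-base words occur in another gene. Irf1 shares 135 bases with Gm17334 and Irf3 shares 88 with Bcl2l12, both on the opposite strand.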

How the data were processed

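RNA of EpH4 cells was sequenced after poly(A) selection in 3 sgControl and 2 sgMef2d libraries. Per the methods and labels, the authors checked reads with FASTQC and RSeQC, aligned them with STAR to GRCm38, removed low-count genes and deposited raw counts per gene. Subread and CASAVA also appear in the submitters' processing notes. The stated annotation is GENCODE version 22, but all 12934 identifiers matched mouse release M21, used here for symbols, coordinates and exon lengths. The lowest maximum of any gene was 11 counts, so genes below the authors' filter are not analysed here. Per-sample columns left unused numbered 0.

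From the deposited counts, edgeR 4.0.16 (R 4.3.3) gave TMM factors of 0.996 to 1.00 and a quasi-likelihood test by group, without a replicate block, on 12483 genes kept by its expression filter. P-values were adjusted over all of them (Benjamini-Hochberg, threshold 0.05). SE is the log2 fold change divided by the root of the F statistic, and intervals cover 95%. Libraries held 13601145 to 20498563 counts, and the biological coefficient of variation was 0.0607. PCR copies were not identified, so floors cover counting error only. Alternatives were other scalings, DESeq2 1.42.0, limma 3.58.1 voom, other filters, the replicate block and leaving out each library. The test was tested on simulated data. Named genes were the 9 members, tested receptor, kinase, STAT and IRF genes, up to 4 called genes of smallest p in each other pathway list, Mef2d, the 3 genes most alike to each called member, and the 3 highest of each marker list, which are given here as sums. The members and lists were chosen with earlier results of these data known. Results for some genes of the pathway lists are not reported here.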

Additional observations from a re-analysis of the deposited data

How the results depend on the processing

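Under other scalings, tools and filters, each with all 5 libraries, the same 3 members passed the threshold. Leaving out 1 library at a time gave 234 to 3639 genes past the threshold against 992, 0 to 5 members against 3, and 12 to 55 genes of the other pathway lists against 35, and the cause was not tested. The Mef2d log2 fold change ranged from -0.193 to -0.0602, and it passed without sgControl replicate 1. Leaving out 1 library at a time also turned the sign, with no call on all 5 libraries, for Ifnar2 (-0.181 to 0.0370), Stat2 (-0.0870 to 0.145), Irf3 (-0.0255 to 0.0917), Jak3 (-0.0322 to 0.0702) and Stat5a (-0.248 to 0.0347). With longest transcripts, 5 of 9 positions in the order of levels were kept. Of the other values under an alternative, 525 kept direction and side of the threshold, 51 lost a call and 4 gained one. The labels do not say whether same-numbered libraries of the 2 groups share more than a number. Deviations of same-numbered libraries from their group means correlated at 0.0113 and -9.16e-04. The deviations of the 2 sgMef2d libraries mirror each other, so these correlations cannot decide this. With the replicate numbers as a replicate block, 1254 genes and the same 3 members passed. No sgMef2d library has the number of sgControl replicate 3, so in that fit this library adds nothing to the group difference. Irf7, at 51 to 142 counts, is the member most limited by depth.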
